A study of Homo sapiens with 20 samples.

Results

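DEPDC1B, its paralog DEPDC1 and 8 genes of the ERK pathway were followed in polysomal RNA after knockdown of the long noncoding RNA lncNB1. The 10 genes were DEPDC1B, DEPDC1, DUSP4, DUSP5, DUSP6, SPRY2, SPRY4, ETV5, MAPK3 and EGR1, chosen because the study placed DEPDC1B between E2F1 and ERK phosphorylation. They were matched by gene symbol, and all 10 were found among 17687 named genes on the array. BE(2)-C, a neuroblastoma line carrying amplified MYCN, received lncNB1 siRNA-1, lncNB1 siRNA-2 or control siRNA for 48 h. Ribosomes were then held on mRNA with cycloheximide and polysomes were separated on a sucrose gradient, where light polysomes carry few ribosomes per mRNA and heavy polysomes carry many. RNA of both fractions was hybridised to 20 Affymetrix Clariom S arrays, with 3 heavy and 3 light arrays for siRNA-1 (replicates 1, 2 and 4), 3 and 3 for siRNA-2 (replicates 1, 2 and 3) and 4 and 4 for control siRNA (replicates 1 to 4). All groups share 1 cell line, and how the replicates were produced is not in the labels. A p-value therefore measures the spread between these arrays, which may be technical. Neither lncNB1 itself nor any protein or phosphorylation was analysed here.

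The ERK pathway carries signals from growth factor receptors through RAS, RAF and MEK kinases to the kinases ERK1 and ERK2, and ERK then drives transcription of early response genes such as EGR1. It also drives its own inhibitors, among them dual specificity phosphatases (DUSP), which remove phosphate from ERK, and Sprouty proteins (SPRY), which act between receptors and RAF. DEPDC1B, a protein with a DEP domain, is known to raise ERK phosphorylation and to be made mainly around mitosis, and ERK phosphorylation is known to stabilise N-Myc protein in neuroblastoma.

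Values are log2 signals after robust multi-array averaging (RMA), in which a difference of 1 is a 2-fold change and each array is scaled to a shared distribution, so every change is one against the rest of the mRNAs in its fraction. A change was called where limma gave a Benjamini-Hochberg adjusted p under 0.05 over 21448 transcript clusters. Both siRNAs were set against the same control arrays. The median signal of an array lay between 6.58 and 6.68. MYCN lay between 11.7 and 12.4 on all arrays, and the mean over 10 measured adrenergic neuroblastoma markers, of 12 listed, between 9.06 and 10.0. By contrast, 4 measured Schwann cell markers, of 6 listed, averaged 5.51 to 5.91, and 5 leukocyte markers, of 6 listed, 4.90 to 5.49. The Schwann cell marker SOX10 had a median of 7.39, against 7.28 for the adrenergic marker TH. The adrenergic mean was lower with siRNA-1, at 9.41 to 9.75 in heavy and 9.06 to 9.23 in light polysomes, than in control arrays, at 9.59 to 10.0 and 9.38 to 9.51. These ranges overlapped in heavy polysomes. Of its 10 genes 3 were called lower in each fraction, where 3.23% of all clusters were in heavy and 6.32% in light polysomes. Of 8 mesenchymal markers 7 were measured, and they averaged 6.87 to 7.10, with SNAI2 and TWIST1 as bright as several adrenergic markers (medians of 9.72 and 9.50). With siRNA-1 TWIST1 was called lower (−0.62 in heavy and −0.60 in light polysomes) and DCN higher (0.90 and 0.70) in both fractions. The part of either marker list in the results with siRNA-1 was not tested.

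DEPDC1B mRNA was lower after siRNA-1 in both fractions. In heavy polysomes the DEPDC1B signal was 7.67, 7.43 and 7.60 with siRNA-1, 8.21, 8.09 and 7.78 with siRNA-2, and 8.27, 8.48, 8.10 and 8.42 with control siRNA. In light polysomes it was 7.51, 7.22 and 7.64 with siRNA-1, 8.15, 8.25 and 8.27 with siRNA-2, and 8.48, 8.51, 8.74 and 8.59 with control siRNA. All 6 siRNA-1 arrays lay below every control array of their fraction, whereas siRNA-2 arrays lay below all controls in light polysomes and overlapped them in heavy polysomes. The siRNA-1 difference was −0.76 (SE 0.14, limma adjusted p = 0.0046) in heavy polysomes, a 1.69-fold decrease, and −1.12 (SE 0.13, adjusted p = 7.3e-05) in light polysomes, a 2.18-fold decrease. The siRNA-2 difference was −0.29 (95% interval −0.59 to 0.01, adjusted p = 0.59) in heavy and −0.36 (−0.63 to −0.08, adjusted p = 0.33) in light polysomes, neither of which passed. DEPDC1B was on the study's own list of genes lower in total RNA of this line with these siRNAs, on other arrays. The study also reported less DEPDC1B mRNA by RT-PCR and less protein by immunoblot with the lncNB1 siRNAs. Its direction had thus been reported with the same siRNAs in the same line, and is not independent evidence here.

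Of the 10 genes, DEPDC1B was the only one called in siRNA-1 against control, 1 of 10 in heavy polysomes, where 8.91% of all clusters were called and 3.23% were called lower, and 1 of 10 in light polysomes, where 11.6% were called and 6.32% lower. No gene of the 10 was called with siRNA-2, where 0.415% of clusters were called in heavy and 0.41% in light polysomes. With the replicate number as a block, 1 of the 10, SPRY2, was called with siRNA-2 in heavy polysomes, along with 590 clusters in all, against 89 without the block. In the same fit 3 of the 10, DEPDC1B, DUSP4 and EGR1, were called with siRNA-1 in heavy polysomes, along with 3501 clusters in all, against 1912 without the block. At an unadjusted p under 0.05, which 8.63% and 9.8% of clusters met, DUSP6, SPRY2 and SPRY4 in heavy polysomes and DEPDC1B, DUSP5 and SPRY2 in light polysomes passed with siRNA-2. The difference between the siRNAs was itself tested. DEPDC1B was lower with siRNA-1 than with siRNA-2, at −0.77 (SE 0.14, limma adjusted p = 0.0018) in light polysomes, where 12.3% of clusters were called, and at −0.46 (SE 0.15, adjusted p = 0.074) in heavy polysomes, where 8.75% were called and DEPDC1B was not. Averaged over both siRNAs, DEPDC1B differed from control by −0.74 (SE 0.11, adjusted p = 0.0031) in light polysomes, where 2.95% of clusters were called, and by −0.52 (SE 0.12, adjusted p = 0.043) in heavy polysomes, where 1.62% were. This heavy call was lost in 8 of the 10 fits that left out 1 array, all but those without siRNA-1 replicate 1 or siRNA-2 replicate 1 (limma adjusted p = 0.037 to 0.154).

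**Figure D1:**
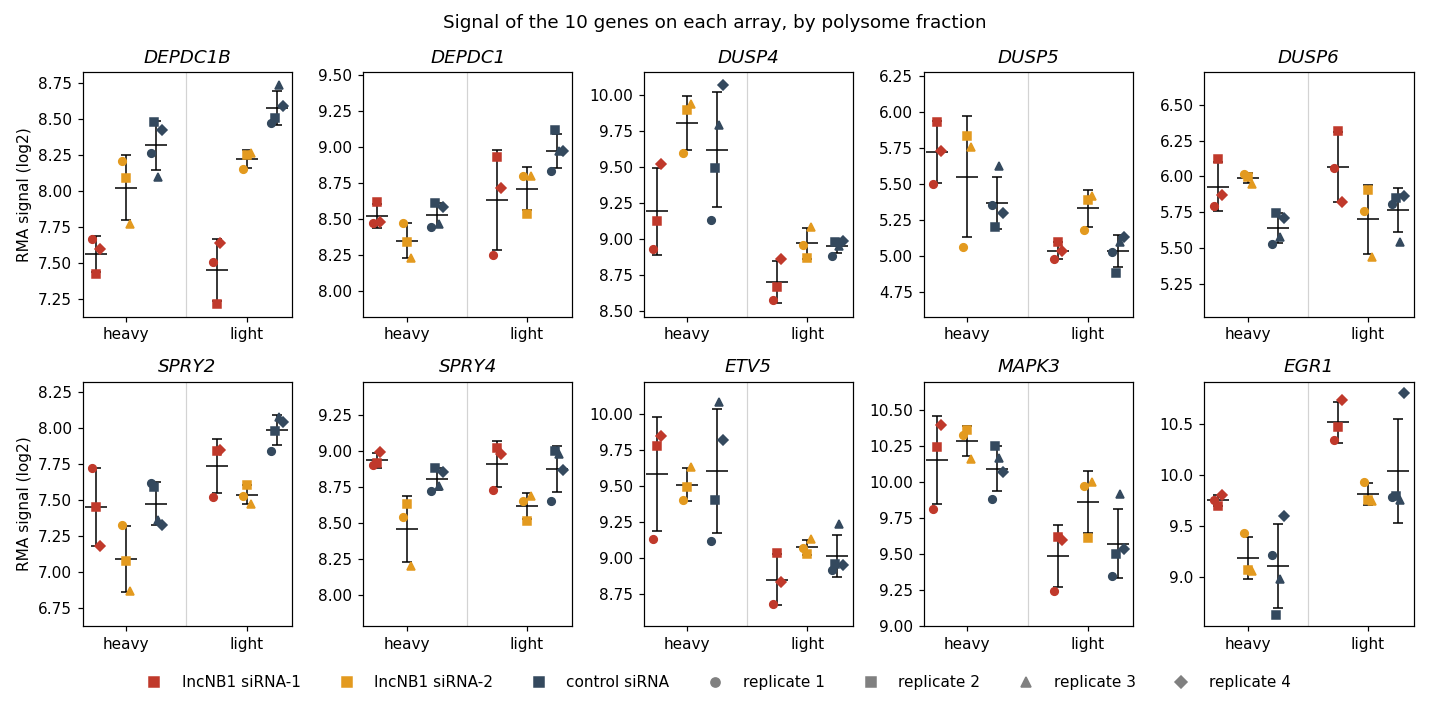
RMA signal (log2) of each of the 10 genes on each array, with heavy polysomes left of light polysomes and siRNA-1 (red), siRNA-2 (orange) and control siRNA (dark blue) from left to right within each; point shapes give the replicate number, and black bars the mean ± SD (n = 3, 3 and 4). DEPDC1B with siRNA-1 sits at 7.43 to 7.67 in heavy and 7.22 to 7.64 in light polysomes, below all control arrays, and every panel spans at least the same number of log2 units.

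Ordered by mean, DEPDC1B stood at 8.58 ± 0.12 in control light polysomes, 8.32 ± 0.17 in control heavy, 8.22 ± 0.06 in siRNA-2 light, 8.03 ± 0.22 in siRNA-2 heavy, 7.56 ± 0.12 in siRNA-1 heavy and 7.46 ± 0.22 in siRNA-1 light (SD, n = 4 for control and 3 for each siRNA). Neighbours in this order overlapped in their single arrays, except at the step from siRNA-2 heavy, with its lowest array at 7.78, to siRNA-1 heavy, with its highest at 7.67.

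E2F1, the cell cycle transcription factor that the study placed upstream of DEPDC1B, had a heavy polysome signal of 8.23, 7.76 and 7.73 with siRNA-1, 8.32, 8.14 and 8.05 with siRNA-2, and 8.73, 8.73, 8.57 and 8.43 with control siRNA. All arrays of both siRNAs lay below all controls, as siRNA-1 arrays did in 7.6% of clusters and siRNA-2 arrays in 5.06%. The share for both at once was not computed. The difference was −0.71 (SE 0.15, limma adjusted p = 0.0087) for siRNA-1, a call lost without siRNA-1 replicate 2 (adjusted p = 0.056), and −0.44 (SE 0.15, adjusted p = 0.31) for siRNA-2. With the replicate number as a block, the siRNA-2 difference was −0.50 and was called (adjusted p = 0.042). E2F1 was on the study's own list of mRNAs lower in heavy polysomes, drawn from this series, so its fall there is not independent evidence. In that list, which does not separate the siRNAs, its limma adjusted p was not under 0.05. Averaged over both siRNAs here, E2F1 differed in heavy polysomes by −0.57 (SE 0.12, limma adjusted p = 0.037), where 1.62% of clusters were called. That call was lost with both siRNAs as 1 group (adjusted p = 0.21) and in most fits that left out 1 array. In light polysomes E2F1 differed by −0.50 (SE 0.15, adjusted p = 0.039) for siRNA-1, with arrays that overlapped the controls, and by −0.31 (SE 0.15, adjusted p = 0.53) for siRNA-2. The light siRNA-1 call was lost in 7 of the 10 fits that left out 1 array and held only in those without replicate 1 of control, 4 of siRNA-1 or 2 of siRNA-2 (limma adjusted p = 0.019 to 0.17 over the 10), and also with array weights (adjusted p = 0.062) and without replicate 1 in every group (adjusted p = 0.096).

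The promoters of DEPDC1B and DEPDC1 are shown because a list of mitotic genes, many of them known to share a promoter element, was lower in the same comparison as DEPDC1B, and that of EGR1 because it holds the classical element of early response genes. Each is the RefSeq window from 250 bases before to 50 bases after the start (GRCh38.p14), which the tables here hold for 7 of the 10 genes. The windows are chr5:60700117-60700416 on the minus strand for DEPDC1B, chr1:68497033-68497332 on the minus strand for DEPDC1 and chr5:138465229-138465528 on the plus strand for EGR1. Capitals mark the CHR element (TTTGAA, which reads TTCAAA on the opposite strand) known from mitotic promoters and, in EGR1, CArG boxes, which bind serum response factor.
DEPDC1B: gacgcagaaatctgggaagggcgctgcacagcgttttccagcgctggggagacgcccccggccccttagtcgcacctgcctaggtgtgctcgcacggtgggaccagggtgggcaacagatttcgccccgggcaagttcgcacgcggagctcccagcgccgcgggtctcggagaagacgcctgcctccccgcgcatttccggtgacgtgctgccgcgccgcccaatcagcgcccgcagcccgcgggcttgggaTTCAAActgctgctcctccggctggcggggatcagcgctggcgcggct
DEPDC1: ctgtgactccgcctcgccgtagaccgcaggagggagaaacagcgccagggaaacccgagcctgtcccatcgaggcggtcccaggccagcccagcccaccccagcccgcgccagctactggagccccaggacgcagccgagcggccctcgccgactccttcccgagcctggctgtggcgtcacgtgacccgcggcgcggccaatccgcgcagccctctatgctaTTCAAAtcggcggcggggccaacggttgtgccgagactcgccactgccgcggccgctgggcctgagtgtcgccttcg
EGR1: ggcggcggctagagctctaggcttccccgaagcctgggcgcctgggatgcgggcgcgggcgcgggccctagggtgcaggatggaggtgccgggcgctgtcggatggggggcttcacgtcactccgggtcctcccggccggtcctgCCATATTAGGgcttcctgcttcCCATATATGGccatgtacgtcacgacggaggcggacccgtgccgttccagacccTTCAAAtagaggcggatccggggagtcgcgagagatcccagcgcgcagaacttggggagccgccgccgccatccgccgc
The CHR letters begin at position 3 in DEPDC1B, counted with the first transcribed base as 1, at −27 in DEPDC1 and at −29 in EGR1, so they occur in 3 of the 7 windows. They occur in 15.4% of 27305 promoters of the same length and in 15 of 22 windows (68.2%) of the mitotic genes described next. These are matches of letters only. Whether any of them acts as a CHR element was not tested, also not in EGR1, an early response gene. CArG boxes occur in 1.29% of all promoters and, of the 7, only in EGR1, which has 2, at −105 and −83. An ETS core (CCGGAA on either strand, 17.6% of promoters) lies in lower case at −55 in DEPDC1B and is also in SPRY2. An E2F core (GCGGGAA or its variants, GCGCGAA as well as GCGCCAA, on either strand, 11.2% of promoters) is in MAPK3, at −57, and in E2F1, at −19, and these letters are not in the windows of DEPDC1B and DEPDC1. The study did report a short stretch rich in E2F1 binding sites just before the DEPDC1B start, and E2F1 protein bound near that start. Deleting the stretch removed the promoter's response to lncNB1 knockdown. Absence of these exact letters therefore does not mean that an E2F site is absent.

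A list of 25 mitotic genes was also lower with siRNA-1. In heavy polysomes 11 of 25 were called lower, as 3.23% of all clusters were, and none higher, with a median difference of −0.55, against about 0 over all clusters (0.0008). In light polysomes 24 of 25 were called lower, as 6.32% of all clusters were, and none higher, with a median of −0.77, against 0.0019 over all clusters. The largest fall in both fractions was that of CEP55, which acts in the final cut between daughter cells, at −1.43 in heavy and −1.65 in light polysomes (limma adjusted p = 0.00044 and 1.4e-05). KIF23, a motor of the central spindle, fell by 0.95 in heavy polysomes (adjusted p = 0.00088), and KIF11, which drives spindle poles apart, fell by 1.01 in light polysomes (adjusted p = 6.2e-05). With siRNA-2 none of the 25 was called, where 0.415% of clusters were in heavy and 0.41% in light polysomes, and the medians were 0.03 in heavy and −0.04 in light polysomes. Of 10 E2F genes, E2F1 included, 4 were called lower with siRNA-1 in heavy polysomes (3.23% of clusters), and 5 lower and 1 higher in light polysomes (6.32% and 5.27% of clusters). E2F1 is among the 5, and its call there was lost in most fits without 1 array. E2F8, a repressor of the family made in S phase, was at −1.35 and −1.5 (adjusted p = 0.0022 and 6.2e-05), and TFDP2, a dimerisation partner, was the 1 gene higher, at 0.52 (adjusted p = 0.0071). With siRNA-2 none of the 10 was called. In bulk RNA, fewer cells around mitosis and less of these mRNAs per cell cannot be told apart. From these arrays alone, neither can less mRNA and less of it on ribosomes, since total RNA was not on them. The study had its own list of genes lower with these siRNAs, from total RNA of this line, on other arrays and at an earlier time. It held CEP55, KIF11, KIF23, KIF20A, CCNB1, HMMR and ECT2 of the mitotic genes, and E2F8. Their direction had thus been reported with the same siRNAs in the same line, and is not independent evidence here.

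DEPDC1, a paralog of DEPDC1B that is likewise known from dividing cells, was called for neither siRNA in either fraction. Its heavy signal was 8.47, 8.62 and 8.48 with siRNA-1, 8.47, 8.34 and 8.23 with siRNA-2, and 8.44, 8.61, 8.46 and 8.58 with control siRNA. All 3 groups overlapped, and the difference was −0.01 (95% interval −0.25 to 0.24) for siRNA-1 and −0.18 (−0.42 to 0.06) for siRNA-2. In light polysomes the signal was 8.25, 8.93 and 8.71 with siRNA-1, 8.80, 8.53 and 8.79 with siRNA-2, and 8.83, 9.11, 8.97 and 8.97 with control siRNA. The siRNA-2 arrays were all below the controls and the siRNA-1 arrays were not, with differences of −0.34 (−0.67 to −0.01, limma adjusted p = 0.19) for siRNA-1 and −0.26 (−0.59 to 0.07, adjusted p = 0.64) for siRNA-2. The change of DEPDC1B relative to DEPDC1 on the same array was −0.75 in heavy and −0.78 in light polysomes for siRNA-1 against control. Each had an exact two-sided permutation p of 0.057, the smallest that 3 arrays against 4 can give. For siRNA-2 it was −0.11 in heavy and −0.09 in light polysomes (exact permutation p = 0.29 and 0.57).

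Among other genes with a DEP domain, 6 of 6 listed were measured. In light polysomes with siRNA-1, DEPTOR, an inhibitor of the kinase mTOR, was higher by 0.66 (limma adjusted p = 0.0057) and DEPDC7 was lower, at −0.54 (adjusted p = 0.012). These were 2 of 6, where 11.6% of clusters were called. None was called in heavy polysomes or with siRNA-2.

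**Figure D2:**
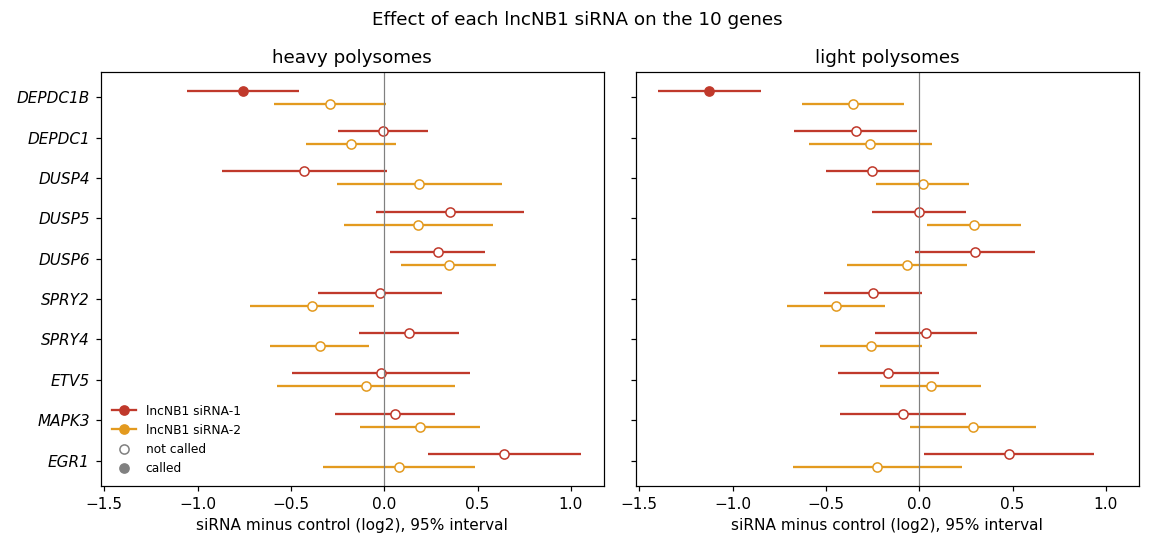
Difference of lncNB1 siRNA-1 (red) and siRNA-2 (orange) from control siRNA (log2, points) with 95% intervals (lines) for the 10 genes, heavy polysomes left and light polysomes right; filled points were called. DEPDC1B with siRNA-1, at −0.76 in heavy and −1.12 in light polysomes, holds both filled points, and EGR1 with siRNA-1 lies farthest to the right, at 0.64 in heavy and 0.48 in light polysomes.

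None of the DUSP phosphatases was called against control in the main fits, and their differences ran in both directions. With the replicate number as a block, DUSP4 was called in heavy polysomes with siRNA-1 (−0.40, limma adjusted p = 0.031). DUSP4, which acts on ERK in the nucleus, had a heavy signal of 8.93, 9.13 and 9.52 with siRNA-1, 9.59, 9.89 and 9.93 with siRNA-2, and 9.13, 9.49, 9.79 and 10.07 with control siRNA. The siRNA-1 arrays overlapped the controls and lay below all siRNA-2 arrays. The difference was −0.43 (95% interval −0.87 to 0.01, limma adjusted p = 0.25) for siRNA-1 and 0.19 (−0.26 to 0.63) for siRNA-2. In light polysomes DUSP4 was 8.58, 8.66 and 8.86 with siRNA-1, 8.96, 8.87 and 9.09 with siRNA-2, and 8.88, 8.98, 8.95 and 8.98 with control siRNA. The siRNA-1 arrays lay below all controls there, at −0.25 (−0.50 to −0.001, adjusted p = 0.21), and the siRNA-2 difference was 0.02 (−0.23 to 0.27).

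DUSP6, the cytoplasmic phosphatase specific to ERK, had a heavy signal of 5.79, 6.12 and 5.87 with siRNA-1, 6.02, 6.0 and 5.95 with siRNA-2, and 5.53, 5.75, 5.58 and 5.71 with control siRNA. All 6 knockdown arrays lay above all 4 controls, at 0.29 (95% interval 0.03 to 0.54, limma adjusted p = 0.17) for siRNA-1 and 0.35 (0.09 to 0.60, adjusted p = 0.33) for siRNA-2, and neither passed. Arrays lay wholly above the controls in 9.88% of clusters with siRNA-1 and in 4.68% with siRNA-2. The share for both at once was not computed, and both siRNAs were set against the same controls. In light polysomes the signal was 6.06, 6.31 and 5.82 with siRNA-1, 5.76, 5.91 and 5.44 with siRNA-2, and 5.81, 5.85, 5.54 and 5.86 with control siRNA. All groups overlapped there, at 0.30 (−0.02 to 0.62) for siRNA-1 and −0.07 (−0.39 to 0.26) for siRNA-2. DUSP5, a nuclear phosphatase specific to ERK, differed from control by 0.35 (−0.04 to 0.75) with siRNA-1 and 0.18 (−0.22 to 0.58) with siRNA-2 in heavy polysomes, where the groups overlapped. In light polysomes it differed by 0.001 (−0.25 to 0.25) with siRNA-1 and by 0.29 (0.04 to 0.55, adjusted p = 0.41) with siRNA-2, whose arrays, at 5.18, 5.39 and 5.42, lay above the controls, at 5.03, 4.89, 5.10 and 5.13. DUSP5 and DUSP6 lay below the median signal of every array, which limits how small a change they could show.

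The Sprouty genes encode inhibitors of signalling from receptors to ERK. SPRY4 had a heavy signal of 8.90, 8.91 and 9.0 with siRNA-1, 8.54, 8.63 and 8.20 with siRNA-2, and 8.72, 8.89, 8.75 and 8.85 with control siRNA. The siRNA-1 arrays were above and the siRNA-2 arrays below all controls, at 0.13 (95% interval −0.13 to 0.40, limma adjusted p = 0.61) and −0.35 (−0.61 to −0.08, adjusted p = 0.38). The 2 siRNAs differed from each other by 0.48 (SE 0.13, adjusted p = 0.038), and SPRY4 was the 1 gene of the 10 called between them in heavy polysomes. That call was lost in 9 of the 10 fits that left out 1 array, all but the one without control replicate 1 (adjusted p = 0.041 to 0.163). In light polysomes SPRY4 differed by 0.03 (−0.24 to 0.31) with siRNA-1 and −0.26 (−0.53 to 0.02) with siRNA-2, and the siRNAs from each other by 0.29 (adjusted p = 0.20).

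SPRY2 had a light signal of 7.52, 7.84 and 7.85 with siRNA-1, 7.53, 7.61 and 7.47 with siRNA-2, and 7.84, 7.98, 8.08 and 8.04 with control siRNA. The siRNA-2 arrays lay below all controls, at −0.45 (95% interval −0.71 to −0.19, limma adjusted p = 0.16), and the siRNA-1 arrays overlapped them, at −0.25 (−0.51 to 0.02, adjusted p = 0.25). In heavy polysomes SPRY2 was 7.33, 7.08 and 6.87 with siRNA-2, also below all controls, at 7.62, 7.59, 7.37 and 7.33, with a difference of −0.39 (−0.72 to −0.05, adjusted p = 0.46). With the replicate number as a block, it was −0.45 and was called (adjusted p = 0.047). With siRNA-1 the heavy difference was −0.02 (−0.36 to 0.31).

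EGR1, the zinc finger transcription factor induced within minutes of ERK activation, had the largest positive difference of the 10 genes with siRNA-1 in both fractions. It did not pass the main test in either. With the replicate number as a block, it was 0.59 in heavy polysomes and was called (limma adjusted p = 0.016). Its heavy signal was 9.76, 9.69 and 9.81 with siRNA-1, 9.43, 9.07 and 9.06 with siRNA-2, and 9.22, 8.63, 8.99 and 9.60 with control siRNA. The siRNA-1 arrays lay above all others, at 0.64 against control (SE 0.19, limma adjusted p = 0.052), and siRNA-2 overlapped the controls, at 0.08 (95% interval −0.33 to 0.49). In light polysomes EGR1 was 10.35, 10.47 and 10.74 with siRNA-1, 9.94, 9.76 and 9.75 with siRNA-2, and 9.79, 9.80, 9.76 and 10.81 with control siRNA. Control replicate 4 stood apart from the other 3 controls and above all siRNA-1 arrays. With it the siRNA-1 difference was 0.48 (SE 0.21, adjusted p = 0.18) and without it 0.74 (adjusted p = 0.0041). Without the heavy array of the same replicate, the highest of the controls, the heavy difference was 0.81 (adjusted p = 0.013). Over the 10 fits that left out 1 array the heavy difference ran from 0.48 to 0.81 (limma adjusted p = 0.013 to 0.13), and only that fit was called. EGR1 was higher with siRNA-1 than with siRNA-2 by 0.56 (SE 0.20, adjusted p = 0.11) in heavy and 0.70 (SE 0.23, adjusted p = 0.058) in light polysomes, with no overlap in either.

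The study had also listed genes by a rule of 1.5-fold at an unadjusted p under 0.05. By that rule siRNA-1 against control gave DEPDC1B and EGR1 in heavy polysomes (2 of 10 genes, against 7.08% of clusters) and DEPDC1B in light polysomes (1 of 10, against 7.3%). None of the 10 genes met it with siRNA-2, as 1.39% of clusters in heavy and 1.2% in light polysomes did. Between the siRNAs, DUSP4 met it in heavy polysomes (8.37% of clusters), and DEPDC1B and EGR1 in light polysomes (8.91%). For the mean of both siRNAs, none met it in heavy polysomes (1.52% of clusters) and DEPDC1B did in light polysomes (1.51%).

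ETV5, an ETS transcription factor that ERK signalling induces, differed from control by −0.02 (95% interval −0.50 to 0.46) with siRNA-1 and −0.10 (−0.57 to 0.38) with siRNA-2 in heavy polysomes, and by −0.17 (−0.44 to 0.10) and 0.06 (−0.21 to 0.33) in light polysomes. Its control heavy arrays ran from 9.12 to 10.08, and its heavy intervals were the widest of the 10 genes. MAPK3, which encodes ERK1 itself, differed by 0.06 (−0.26 to 0.38) with siRNA-1 and 0.19 (−0.13 to 0.51) with siRNA-2 in heavy polysomes, and by −0.09 (−0.42 to 0.25) and 0.29 (−0.05 to 0.62) in light polysomes. All groups of ETV5 and MAPK3 overlapped their controls.

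Counted over the 10 genes, siRNA-1 arrays lay wholly above the controls for 3 genes in heavy polysomes (DUSP6, SPRY4 and EGR1), where 9.88% of clusters did, and wholly below for DEPDC1B, where 7.6% did. In light polysomes they lay wholly above for no gene (9.5% of clusters) and wholly below for DEPDC1B and DUSP4 (11% of clusters). With siRNA-2, DUSP6 lay wholly above and SPRY2 and SPRY4 wholly below in heavy polysomes (4.68% and 5.06% of clusters), and DUSP5 wholly above and DEPDC1B, DEPDC1 and SPRY2 wholly below in light polysomes (5.19% and 5.56%). Between the siRNAs, with siRNA-1 set against siRNA-2, SPRY4 and EGR1 lay wholly above and DEPDC1B and DUSP4 wholly below in heavy polysomes (13.7% and 11.5% of clusters). In light polysomes SPRY4 and EGR1 lay wholly above and DEPDC1B, DUSP4 and DUSP5 wholly below (13.6% and 14.6% of clusters). The median difference of the 10 genes was 0.03 in heavy and −0.13 in light polysomes with siRNA-1, and −0.01 and −0.15 with siRNA-2, against medians within 0.01 of 0 over all clusters.

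Some other genes of the pathway were called with siRNA-1 and none with siRNA-2. Of 24 listed components of the ERK cascade 17 were measured. With siRNA-1, 3 of 17 were called in heavy polysomes, all higher (5.68% of all clusters were called higher), and 4 of 17 in light polysomes, 2 higher and 2 lower (5.27% and 6.32% of clusters). With siRNA-1, the receptor RET (0.57, limma adjusted p = 0.011), the adaptor SHC1 (0.58, adjusted p = 0.013) and the RAS inhibitor NF1 (0.66, adjusted p = 0.043) were the 3 in heavy polysomes. In light polysomes SHC1 (0.88, adjusted p = 0.0011) and RET (0.42, adjusted p = 0.045) were called higher, and the ERK-activated kinase RPS6KA3 (−0.55, adjusted p = 0.016) and the RAS activator SOS1 (−0.48, adjusted p = 0.016) lower. With siRNA-2 none of the 17 was called, where 0.415% of clusters were in heavy and 0.41% in light polysomes, and the smallest p was that of SOS2, a relative of SOS1, at 0.45 in heavy (adjusted p = 0.15) and 0.59 in light polysomes (adjusted p = 0.37).

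Of 28 further ERK feedback and early response genes 27 were measured, and 2 of 27 were called in each fraction with siRNA-1, where 8.91% of all clusters were called in heavy and 11.6% in light polysomes. In heavy polysomes IL17RD, a membrane inhibitor of ERK signalling, was higher by 1.09 (limma adjusted p = 0.0012) and CCND1, the G1 cyclin D1, was lower, at −0.85 (adjusted p = 0.034). In light polysomes SPRY3, a Sprouty gene, was higher by 0.86 (adjusted p = 0.0074) and CCND1 lower, at −0.41 (adjusted p = 0.028). With siRNA-2 none was called, the smallest p being those of PHLDA1 in heavy (−0.50, adjusted p = 0.30) and the ETS factor ETV1 in light polysomes (0.50, adjusted p = 0.095). The median of the 27 was 0.06 in heavy and −0.07 in light polysomes with siRNA-1, and 0.03 and −0.07 with siRNA-2.

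**Figure D3:**
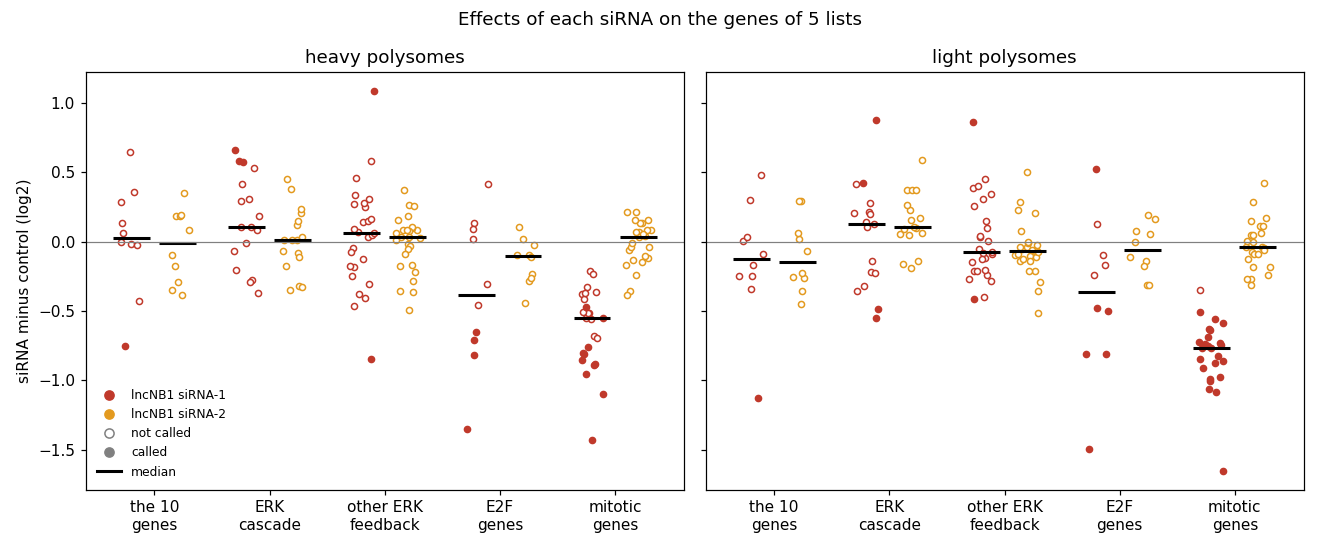
Difference from control (log2) of each measured gene of 5 lists with lncNB1 siRNA-1 (red) and siRNA-2 (orange), heavy polysomes left and light polysomes right; filled points were called and black bars are medians. The mitotic genes centre on −0.55 in heavy and −0.77 in light polysomes with siRNA-1 and on 0.03 and −0.04 with siRNA-2, whereas the 10 genes and both other ERK lists centre within 0.15 of 0.

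The heavy and light signals of control cells were compared to place each mRNA on the gradient relative to other mRNAs, from the heavy minus light difference of the 4 control transfections. Of the 10 genes 6 were called, where 27.3% of all clusters were. DUSP4 was higher in heavy polysomes by 0.25, 0.51, 0.84 and 1.08, a mean of 0.67 (SE 0.14, limma adjusted p = 0.0019), ETV5 by a mean of 0.59 (SE 0.13, adjusted p = 0.0037) and MAPK3 by a mean of 0.52 (SE 0.12, adjusted p = 0.0049). EGR1 was lower in heavy polysomes in all 4 transfections, at −0.57, −1.17, −0.77 and −1.21, with a mean of −0.93 (SE 0.12, adjusted p = 0.0001), SPRY2 had a mean of −0.51 (SE 0.14, adjusted p = 0.015) and DEPDC1 one of −0.45 (SE 0.12, adjusted p = 0.0096). So, relative to the other mRNAs, EGR1, DEPDC1 and SPRY2 mRNA leaned to light polysomes and DUSP4, ETV5 and MAPK3 mRNA to heavy polysomes. The SPRY2 call was lost without control replicate 3 (limma adjusted p = 0.076) and without control replicate 4 (adjusted p = 0.095). The fraction that held most copies of an mRNA was not measured, since each array is scaled to a shared distribution. DEPDC1B (−0.26, adjusted p = 0.15), DUSP5 (0.33, adjusted p = 0.051), DUSP6 (−0.13) and SPRY4 (−0.07) were not called. At 1.5-fold and an unadjusted p under 0.05, which 15.7% of clusters met, 3 of the 10 remained, EGR1, DUSP4 and ETV5. The transfections of replicate 1 separated the fractions less than the others over all clusters, with slopes of 0.585 for siRNA-1, 0.727 for siRNA-2 and 0.527 for control on the mean of the other transfections, against 0.900 to 1.38 for the rest. Their differences for DUSP4, ETV5 and EGR1 were the smallest of the 4 controls.

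**Figure D4:**
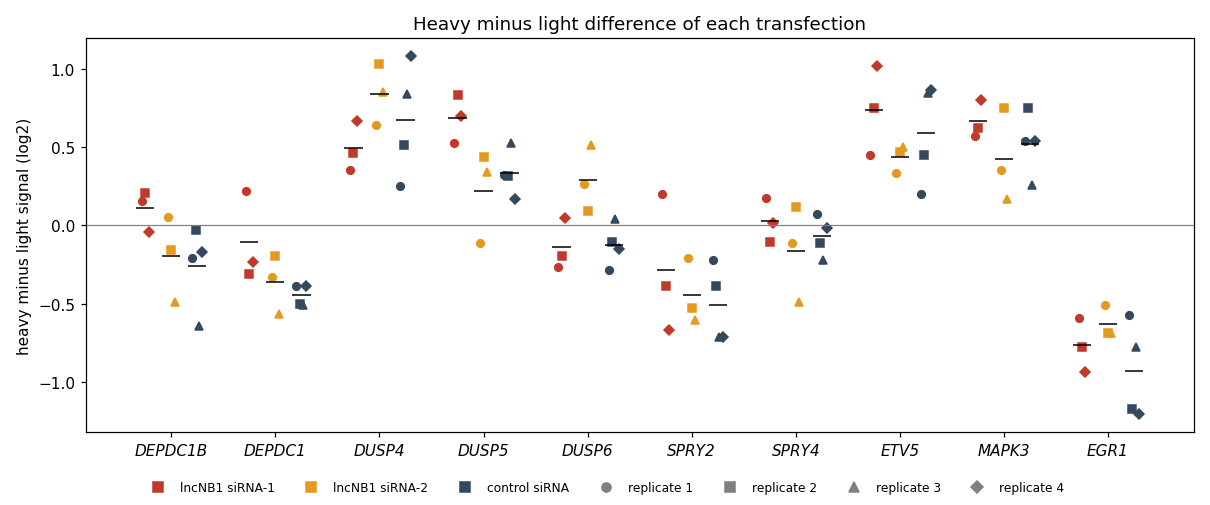
Heavy minus light difference (log2) of each transfection for the 10 genes, with siRNA-1 (red), siRNA-2 (orange) and control siRNA (dark blue) from left to right; point shapes give the replicate number and black bars the mean. EGR1 is below 0 in all 10 transfections, and DUSP4, ETV5 and MAPK3 are above 0 in all 10.

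The shift, the heavy minus light difference with an siRNA less that with control siRNA, asked whether an siRNA changed where an mRNA sat. For DEPDC1B the heavy minus light difference was 0.15, 0.21 and −0.04 with siRNA-1, 0.05, −0.16 and −0.49 with siRNA-2, and −0.21, −0.03, −0.64 and −0.17 with control siRNA. The siRNA-1 values overlapped the controls only at replicate 4, and the shift was 0.37 (95% interval −0.04 to 0.78, limma adjusted p = 0.91) for siRNA-1 and 0.06 (−0.35 to 0.48) for siRNA-2. DUSP6 had the largest siRNA-2 shift, 0.41 (0.05 to 0.78, adjusted p = 1.0), with 0.26, 0.09 and 0.51 in siRNA-2 transfections and −0.28, −0.11, 0.04 and −0.15 in control ones, which did not overlap. None of the 10 genes was called for either shift, and neither was any cluster (0% in both, with 1206 clusters for siRNA-1 and 542 for siRNA-2 at an unadjusted p under 0.05). The other shifts of the 10 genes ran from −0.18 to 0.35 for siRNA-1 and from −0.16 to 0.30 for siRNA-2.

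The named genes whose signal followed that of DEPDC1B most closely, over 20 arrays centred within each fraction, were ARHGEF39, ITGB3BP, RMI1, SFR1 and UAP1, with root mean square differences of 0.118, 0.125, 0.138, 0.144 and 0.147, against 0.421 for the spread of DEPDC1B itself. With siRNA-1 they differed from control by −0.75 to −0.88 in heavy and −0.94 to −1.11 in light polysomes. With siRNA-2 the 5 differed by −0.15 to −0.48 in heavy and −0.14 to −0.43 in light polysomes. They were chosen for being close to DEPDC1B on these arrays, which fixes these values near those of DEPDC1B, so they are given as a description. For DUSP6 the nearest were TSNARE1, MGRN1, SAMD11, MAD1L1 and MAML2, at 0.143 to 0.149, against 0.209 for the spread of DUSP6 itself, chosen in the same way.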

How the data were processed

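The authors processed the Clariom S arrays with the robust multi-array average of the oligo package and deposited log2 values, 1 per transcript cluster, for 20 arrays. According to the processing notes of the submitters, R 3.5.3 and limma 3.38.3 were used. The genome build, and whether both fractions were normalised in 1 run, are not given in the sources used here. RNA input was 100 ng, and the number of arrays limits the precision. Of 27189 rows, 5741 control and other rows were left out. Symbols came from the platform annotation (17709 clusters with 1 symbol, 3739 with none), and a repeated symbol (20) was represented by its brightest cluster.

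Tests used limma 3.58.1 (lmFit and eBayes) in R 4.3.3, with group means fitted separately in each fraction (10 arrays), or on the heavy minus light differences of 10 transfections. Arrays of the same siRNA and replicate number were treated as 1 transfection, an assumption the labels leave unstated. Adjustment (Benjamini-Hochberg) was over 21448 clusters. Fits were tested on simulated data. Each same-numbered pair of arrays deviated together, with r over 0.1, only for siRNA-2 against control in heavy polysomes (r = 0.19 to 0.43, 3 pairs). For siRNA-1 against control there r ran from 0.05 to 0.62. The replicate number as a block is given beside the heavy results against control whose call it changed. Exact permutation tests used scipy 1.17.1. The genes, lists and tests were chosen with earlier results of these data known. Named genes were the 10 genes, E2F1, per list up to 4 called genes with the smallest p in a comparison (or the gene with the smallest p), and the 5 nearest to DEPDC1B and DUSP6. Alternatives were a replicate block, array weights, a repeated quantile normalisation, a filter on dim clusters, another eBayes setting, both siRNAs as 1 group, 1 fit of all arrays, a rule of 1.5-fold at an unadjusted p under 0.05, and leaving out arrays. One further list of genes is not reported here.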

Additional observations from a re-analysis of the deposited data

Results flagged for a closer look

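Between the siRNAs, DEPDC1B differed by −0.77 on the log2 scale in light polysomes (siRNA-1 minus siRNA-2, limma adjusted p = 0.0018), and all 3 siRNA-1 arrays lay below all 3 siRNA-2 arrays. SPRY4 differed by 0.48 in heavy polysomes (adjusted p = 0.038), and all 3 siRNA-1 arrays lay above all 3 siRNA-2 arrays, as in 13.7% of clusters. The SPRY4 call was lost in 9 of the 10 fits that left out 1 array. These 2 differences between siRNAs against the same lncRNA were tested directly.

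In 3 control light groups 1 array stood far from the other 3. For EGR1 it was replicate 4, at 10.81 against 9.76 to 9.80, a gap of 0.961 of the group's range. For ETV5 it was replicate 3, at 9.23 against 8.91 to 8.95, a gap of 0.874 of the range. For DUSP6 it was replicate 3, at 5.54 against 5.81 to 5.86, a gap of 0.835 of the range. Chance gives a gap as large as the smallest of these in about 1 in 20 groups of 4, and larger gaps less often.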

How the results depend on the processing

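Of 2145 values of single genes under the alternatives, 1995 kept their direction and their side of the threshold, 50 lost a call, 32 gained one and 68 changed sign, none of them past the threshold (limma). DEPDC1B kept its siRNA-1 call in both fractions, and its light polysome call between the siRNAs, under every alternative run. With 3 or 4 arrays a group, 95% intervals of the siRNA effects spanned about 0.5 to 1.0 log2 units. Same-numbered arrays of different siRNAs deviated together only in part (r = −0.10 to 0.62, median 0.23, 16 pairs), and 15 of 20 arrays correlated best with one of their own number, which is a hint from the data and not from the design. Arrays with different numbers had a median r of −0.05 (50 pairs). Every same-numbered pair was over 0.1 only for siRNA-2 against control in heavy polysomes. For siRNA-1 against control there the pairs were at 0.62, 0.05 and 0.47. The block is given beside the heavy results against control whose call it changed.

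The number of the 10 genes called changed as follows, and the cause was not tested. With the replicate block it was 3 for siRNA-1 against control (DEPDC1B, DUSP4 and EGR1), 1 for siRNA-2 against control (SPRY2, with E2F1 also called) and 2 between the siRNAs (DEPDC1B and DUSP4), all in heavy polysomes, and 3501 clusters were called for siRNA-1 in heavy polysomes, against 1912 without the block. For siRNA-1 against control in heavy polysomes it was 2 with array weights, without dim clusters and at 1.5-fold, EGR1 being added each time, and 1 to 2 with 1 array left out. Between the siRNAs in heavy polysomes it was 3 with array weights and with 1 fit of all arrays, 2 with repeated quantile normalisation, 0 without replicate 1 in every group, and 0 to 1 with 1 array left out. For the mean of both siRNAs in heavy polysomes it was 0 without replicate 1, with both siRNAs as 1 group and at 1.5-fold, and 0 to 1 with 1 array left out. In light polysomes it was 1 for siRNA-2 with array weights (SPRY2), 1 to 2 for siRNA-1 with 1 array left out, and 2 between the siRNAs, EGR1 being added, with quantile normalisation, without dim clusters, with trend and robust eBayes, with 1 fit of all arrays and at 1.5-fold, and 1 to 2 with 1 array left out. For the mean of both siRNAs in light polysomes it was 2 without dim clusters (SPRY2 added) and 0 with both siRNAs as 1 group. Heavy against light in control cells gave 3 at 1.5-fold and 5 to 7 with 1 transfection left out.

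None of the values that changed sign was past the threshold. With the replicate block, ETV5 was at 0.070 for siRNA-1 and 0.019 for the mean of both siRNAs in heavy polysomes, DUSP6 at 0.050 for the siRNA-1 shift and SPRY2 at −0.029 for the siRNA-2 shift. With array weights, siRNA-1 in heavy polysomes gave 0.027 for DEPDC1 and 0.031 for ETV5, and the siRNAs differed by 0.027 for DUSP6. Quantile normalisation gave −0.029 for DUSP5 with siRNA-1 in light polysomes. Without replicate 1 in every group, the values in heavy polysomes were 0.046 for ETV5 with siRNA-1, −0.0055 for EGR1 with siRNA-2, and 0.024 for DUSP6 and 0.059 for MAPK3 between the siRNAs. DEPDC1 was then at 0.16 between the siRNAs in light polysomes, and the siRNA-2 shift at −0.045 for DEPDC1B and 0.053 for DUSP5. With 1 array left out in turn, siRNA-1 against control in heavy polysomes ran from −0.053 to 0.023 for DEPDC1, −0.16 to 0.11 for SPRY2, −0.18 to 0.21 for ETV5 and −0.065 to 0.23 for MAPK3, and siRNA-2 from −0.26 to 0.063 for ETV5 and −0.080 to 0.24 for EGR1. Between the siRNAs in heavy polysomes it ran from −0.072 to 0.31 for DUSP5, −0.16 to 0.0080 for DUSP6, −0.055 to 0.30 for ETV5 and −0.26 to 0.037 for MAPK3, and for the mean of both siRNAs from −0.28 to 0.028 for DUSP4 and −0.22 to 0.10 for ETV5. In light polysomes it ran from −0.049 to 0.033 for DUSP5, −0.040 to 0.13 for SPRY4 and −0.16 to 0.036 for MAPK3 with siRNA-1, from −0.039 to 0.070 for DUSP4, −0.17 to 0.065 for DUSP6 and −0.32 to 0.032 for EGR1 with siRNA-2, from −0.23 to 0.11 for DEPDC1 between the siRNAs, and from −0.099 to 0.021 for ETV5 for the mean of both. The siRNA-1 shift ran from −0.10 to 0.052 for DUSP6, −0.019 to 0.41 for SPRY2 and −0.51 to 0.024 for E2F1, and the siRNA-2 shift from −0.064 to 0.21 for DEPDC1B, −0.0015 to 0.18 for DEPDC1, −0.22 to 0.056 for DUSP5, −0.060 to 0.16 for SPRY2, −0.23 to 0.073 for SPRY4, −0.26 to 0.032 for MAPK3 and −0.23 to 0.0013 for E2F1.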
